A study of Mus musculus with 12 samples.

Results

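Nuclei of the newborn mouse forebrain were examined for 36 genes of the Eph-ephrin, Slit-Robo and netrin systems, found by their symbols among the 55335 genes of the deposited tables. They comprise 9 EphA receptors, 5 EphB receptors, 5 ephrin-A ligands, 3 ephrin-B ligands, 3 Slits, 3 Robo receptors, 2 netrins and 6 netrin receptors. All were measured by single-nucleus RNA-seq with split-pool barcoding in forebrain at postnatal day 1, from the MYT1L S710fsX line on a C57BL/6 background. This germline frameshift allele of the neuronal zinc finger transcription factor MYT1L is present in every cell of a carrier. The comparison was between 8 wild type (WT) libraries, 5 male and 3 female, and 4 heterozygous (Het) libraries, 3 male and 1 female, each from 1 mouse. It asks whether carriers differ in the guidance genes that their nuclei express. The single Het female means that sex could not be separated from that library within Het.

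Guidance genes tell growing axons and migrating neurons where to go. Ephrins are bound to the cell surface and are read by Eph receptor tyrosine kinases on the neighbouring cell, with signalling in both directions. Slits are secreted proteins that mostly repel cells carrying Robo receptors, and they keep commissural axons from recrossing the midline. Netrins attract axons through DCC and can repel them when an UNC5 receptor is present. In the newborn forebrain these systems act while corticothalamic, callosal and striatal axons grow and late-born cortical neurons settle.

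After filtering, 94155 nuclei were kept, 54921 from WT and 39234 from Het, with 4457 to 10855 nuclei and 9730953 to 24120091 UMIs (unique molecules counted) per library. No barcode occurred in more than 1 library. Graph clustering without the 36 genes gave 48 clusters, of which 29 could be named from marker lists and held 75.8% of nuclei. The named clusters formed 19 cell classes, each called "like" its type because the name rests on markers, and 17 of them had enough libraries for a genotype test. The choroid/ependymal-like and cholinergic-like classes did not, since 2 WT libraries held at least 10 of their nuclei, and orders of classes below cover the 17 alone. Levels are UMIs of the gene per 1000000 UMIs of the class in a library (counts per 1000000, CPM), given as mean ± SD over libraries, and WT values have n = 8 unless stated. Fewer transcripts per nucleus and a different mix of nuclei within a class cannot be told apart in such sums. Of the fixed markers, all 8 for Cajal-Retzius cells, all 9 for microglia and all 9 for cycling cells were highest in their own class, against 4 of 10 for upper-layer ExN. The microglia-like cluster was nevertheless led by Mrc1, F13a1 and Stab1, genes known from macrophages at brain borders, with the microglial gene P2ry12 at 640 ± 239 CPM, so its name does not separate the 2 cell types. Mean class shares, which were not tested, included striatal D1-like nuclei at 4.51% of WT and 7.64% of Het nuclei and deep-layer-like excitatory neurons (ExN) at 9.2% and 5.06%. The libraries overlapped in both. D1-like nuclei made up 0.434 to 6.56% in WT and 5.5 to 10.4% in Het libraries. Deep-layer-like ExN made up 3.91 to 15.2% and 3.33 to 8.5%.

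Myt1l, the targeted gene, ran from 1266 to 1613 CPM over all nuclei of the WT libraries with a median of 1383 CPM. It stood at 1532, 1652, 1548 and 1561 CPM in Het male 1, 2 and 3 and Het female 1. The Het libraries lay inside the WT range or above it, with a log2 difference of 0.12 ± 0.06 (SE) and an adjusted p of 0.554 (edgeR's quasi-likelihood test). The difference was above 0 in 16 of the 17 classes, with 0.28 ± 0.09 (SE) in L6b/subplate-like ExN (edgeR adjusted p = 0.401) and 0.21 ± 0.07 (SE) in all excitatory nuclei (edgeR adjusted p = 0.288), and none was called. Counts per gene do not separate the alleles, and RNA of the mutant allele was not measured apart, so this level was not taken as a check of the genotype labels.

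Most of the 36 genes were expressed somewhere. In 32 of them the mean WT level reached 10 CPM in at least 1 class, and the 4 below that were Epha1, Efna3, Efna4 and Robo3. Epha1 was counted 37 times in all nuclei together, and the other strand of its gene overlaps Zyx. Levels of genes of different length are not directly comparable, because a nuclear library counts reads along introns. Values per length are therefore given as well, but whether counts scaled with gene length was not tested. Per kilobase of gene body over all WT nuclei, Efnb3 stood at 5.86 CPM, Robo2 at 4.18, Epha7 at 3.11, Epha5 at 2.79 and Robo1 at 2.71, whereas Epha1 stood at 0.0126. Efnb3, which encodes a transmembrane ephrin, therefore led on this scale although its level was 35.7 CPM, since its gene spans 6.1 kb.

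**Figure D1:**
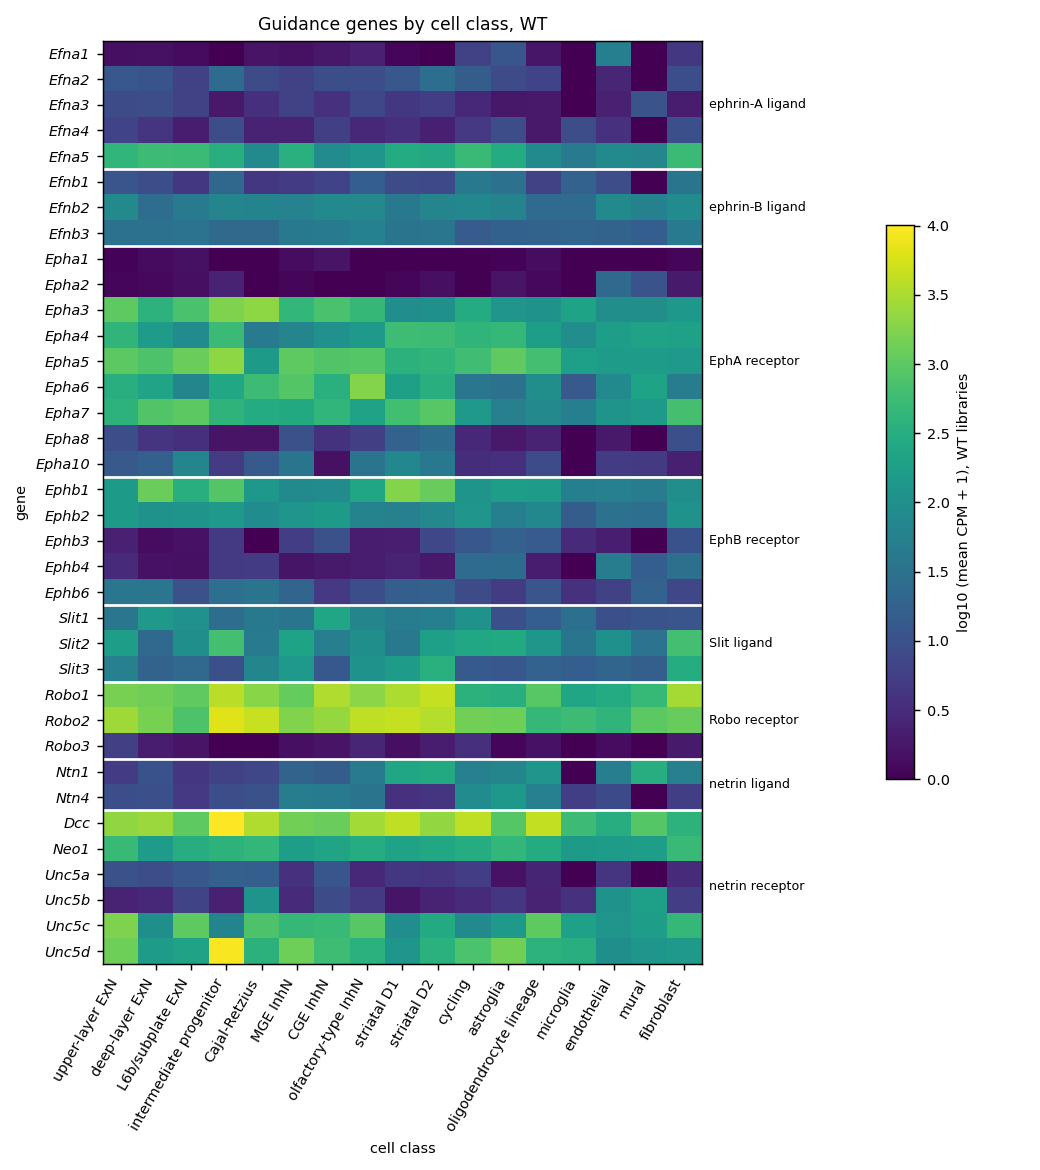
Mean WT level of the 36 genes (rows, grouped by role) in the 17 tested cell classes (columns), as log10 of CPM plus 1 in colour. Dcc and Unc5d in intermediate progenitor-like nuclei are the brightest cells, at 10060 and 9039 CPM, and Epha1 is dark in every class.

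Because MYT1L belongs to the MYT1 family, whose zinc fingers are known to bind an AAGTT core, 300-base promoter windows (250 bases before to 50 after each annotated start, RefSeq, GRCm38.p6) were searched for AAGTT and its reverse complement AACTT on both strands. The table held 36 windows for 31 of the 36 genes. A match was found in 12 of the 36 windows (33.3%), against 12918 of all 32851 windows (39.3%). A match is a description of letters, not of binding. The windows below belong to those genes with a match whose levels in both genotypes are given by library later. They are written on the gene's own strand with the match in capitals. Robo2, Unc5d, Efna5, Dcc, Unc5c, Slit1 and Epha7, also given by library, had no match or no window. Efna4, Efnb1, Epha1, Epha2, Epha6, Ephb1, Ephb4 and Robo3 had matches that are not shown. The Robo1 matches lie at chr16:72662928-72662956 and chr16:72663029-72663057 on the plus strand, ahead of a start inside the gene body, and the first of the Slit2 matches lies at chr5:47982929-47982957 on the plus strand. The first of Epha3, at chr16:63864152-63864180, and that of Epha4, at chr1:77515076-77515104, are on the minus strand around the start itself.
Robo1, first match: gggacccaaaacAAGTTcttattcgttga
Robo1, second match: attaacacgcagAACTTgtctgagcagcg
Slit2: tttctggtggccAAGTTtgctggatccta
Epha3: tctccagtgtcaAACTTgacatcagactg
Epha4: tgctgcactcctAACTTaagcatttattc

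Eph receptors divided the forebrain by class. Epha3 was highest in Cajal-Retzius-like nuclei, the Reln-expressing cells of the cortical surface, at 2087 ± 254 CPM, followed by intermediate progenitor-like nuclei at 1722 ± 400 CPM and upper-layer-like ExN at 1013 CPM. It was lowest in striatal D1-like nuclei at 91.9 CPM. Ephb1, a receptor known for the guidance of corticospinal and ipsilateral retinal axons, had another order. It reached 1817 ± 197 CPM in striatal D1-like nuclei, 1277 ± 152 CPM in deep-layer-like ExN and 1189 CPM in striatal D2-like nuclei. Intermediate progenitor-like nuclei, second for Epha3, held 864 ± 283 CPM of Ephb1, and upper-layer-like ExN held 148.5 CPM. The lowest, median and highest WT libraries for Ephb1 in D1-like nuclei were 1499, 1889 and 2044 CPM, and these overlapped with those of deep-layer-like ExN.

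Epha4, which binds both ephrin classes, was similar in striatal D1-like and D2-like nuclei, at 565 ± 98.7 and 546 ± 120 CPM, and astroglia-like nuclei held 457.5 ± 63.0 CPM. Epha6 was highest in the olfactory-type inhibitory neurons (InhN), at 1828 ± 489 CPM against 860.5 ± 89.0 CPM in the medial ganglionic eminence (MGE)-like InhN. Epha7 led in layer 6b and subplate-like ExN at 986.5 ± 274 CPM, with striatal D2-like nuclei at 932.5 CPM and deep-layer-like ExN at 826 CPM, and these did not separate beyond their spread. Epha5 was broad, from 140.9 CPM in fibroblast-like nuclei to 2118 ± 521 CPM in intermediate progenitor-like nuclei. Each WT library of the latter lay above each of the next class, the L6b/subplate-like ExN at 1284 ± 83.1 CPM. An unnamed cluster of 299 nuclei, cluster 39, held more Epha5 (7561 ± 912 CPM) and Epha6 (3847 ± 156 CPM), over 3 WT libraries with at least 10 of its nuclei. Epha10 was highest in striatal D1-like nuclei (72.1 CPM) and L6b/subplate-like ExN (66.2 CPM), while Ephb2 was led by upper-layer-like ExN at 150.9 CPM and caudal ganglionic eminence (CGE)-like InhN at 148.5 CPM.

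Some members were highest in endothelial-like or mural-like nuclei. Efna1, a membrane-anchored ephrin known from vascular endothelium, was at 51.7 ± 20.01 CPM in endothelial-like nuclei and at 10.9 CPM in the next class, astroglia-like nuclei, with no overlap between their libraries. Ephb4, the venous receptor of ephrin-B2, was at 48.0 ± 22.5 CPM in endothelial-like and 29.4 CPM in fibroblast-like nuclei, with overlapping libraries. Epha2 also led in endothelial-like nuclei, at 22.5 ± 13.6 CPM, with the lowest WT library at 0. Unc5b, the UNC5 receptor of vessels, was highest in mural-like nuclei at 179.5 ± 35.7 CPM (n = 5), followed by Cajal-Retzius-like nuclei at 115.5 CPM and endothelial-like nuclei at 114.8 CPM. In striatal D1-like nuclei Unc5b was at 0.713 CPM. With each nucleus gated alone Unc5b was highest in endothelial-like nuclei, at 69.0 CPM.

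Efna5, a lipid-anchored ephrin, varied widely between classes. It stood at 560 ± 108 CPM in deep-layer-like ExN, 542 ± 97.5 CPM in fibroblast-like nuclei and 536 CPM in L6b/subplate-like ExN, whereas CGE-like InhN held 85.6 CPM and Cajal-Retzius-like nuclei 77.5 CPM. Efnb2 varied least among classes of the ephrin-B genes, from 24.2 CPM in the oligodendrocyte lineage-like class to 82.9 CPM in fibroblast-like nuclei. Summed over ligands, ephrins reached 724 ± 106 CPM in fibroblast-like nuclei and 133 ± 26.7 CPM in oligodendrocyte lineage-like nuclei.

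The 3 Slits had different leading classes, although for Slit2 and Slit3 the order depended on how classes were drawn. Slit1 was highest in CGE-like InhN at 222 ± 41.8 CPM and in deep-layer-like ExN at 145 ± 18.1 CPM. Slit2 was shared by intermediate progenitor-like nuclei at 643 ± 198 CPM and fibroblast-like nuclei at 640 ± 204 CPM. Slit3 was highest in striatal D2-like nuclei at 351 ± 50.6 CPM, against 157 CPM in D1-like nuclei. Outside the 17 classes, over 2 WT libraries each, choroid/ependymal-like nuclei held 668.5 ± 107 CPM of Slit3 and cholinergic-like nuclei 322 ± 31.4 CPM of Slit1. With each nucleus gated alone, both Slit2 (607 CPM) and Slit3 (305 CPM) were highest in fibroblast-like nuclei, and Slit2 was also highest there at resolutions of 0.8 and 2.5. Within the fibroblast-like class, cluster 30, led by the genes Bnc2, Itgbl1 and Tbx15, held 1854 ± 374 CPM of Slit2 and 932.5 ± 256 CPM of Slit3. Slits summed to 948 ± 258 CPM in fibroblast-like nuclei, and to 185 ± 16.0 CPM in deep-layer-like ExN.

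Robo1 and Robo2, the main Slit receptors of the brain, were found in each of the 17 classes. Among these Robo2 was highest in intermediate progenitor-like nuclei at 6561 ± 492 CPM and Cajal-Retzius-like nuclei at 4669 ± 934 CPM, and lowest in endothelial-like nuclei at 408 CPM. Robo1 reached 4420 ± 867 CPM in striatal D2-like, 3898 ± 446 CPM in intermediate progenitor-like and 3305 CPM in CGE-like nuclei, against 225 CPM in microglia-like nuclei. An unnamed cluster of 430 nuclei led by Isl1 and Gpr149, cluster 36, held 10740 ± 781 CPM of Robo1 over 5 WT libraries. Robo2 was at 7533 ± 999 CPM in the cholinergic-like class over 2 WT libraries. Robo3, the receptor of commissural axons before crossing, peaked at 4.78 CPM in upper-layer-like ExN.

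Netrin ligands and their receptors, each summed, had different leading classes, mural-like and intermediate progenitor-like nuclei. Some classes were high in both, such as striatal D1-like nuclei for Ntn1 and Dcc. Ntn1 was highest in mural-like nuclei at 316 ± 119 CPM (n = 5), striatal D2-like nuclei at 271.5 ± 77.2 CPM and D1-like nuclei at 229 ± 98.5 CPM, and it stood at 3.94 CPM in upper-layer-like ExN. With each nucleus gated alone Ntn1 was highest in striatal D2-like nuclei, at 185.5 CPM. Ntn4, a netrin of basement membranes, was highest in astroglia-like nuclei at 137 ± 24.9 CPM. Dcc stood at 10060 ± 3181 CPM in intermediate progenitor-like, 4393 ± 487 CPM in oligodendrocyte lineage-like, 4105 ± 848 CPM in cycling and 4099 ± 440 CPM in striatal D1-like nuclei, against 876 ± 233 CPM in astroglia-like and 311 ± 85.1 CPM in endothelial-like nuclei. Unc5c was highest in upper-layer-like ExN at 1698 ± 267 CPM and lowest in intermediate progenitor-like nuclei at 62.6 ± 23.5 CPM. That order depended on how nuclei were grouped. With nuclei gated singly the latter class held 811 CPM, near the 903 CPM of all WT nuclei, and L6b/subplate-like ExN led at 2153 CPM. Unc5d, a marker of newly born upper-layer neurons, had the reverse of the clustered order, with 9039 ± 674.5 CPM in intermediate progenitor-like nuclei and 1323 ± 138 CPM in upper-layer-like ExN.

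**Figure D2:**
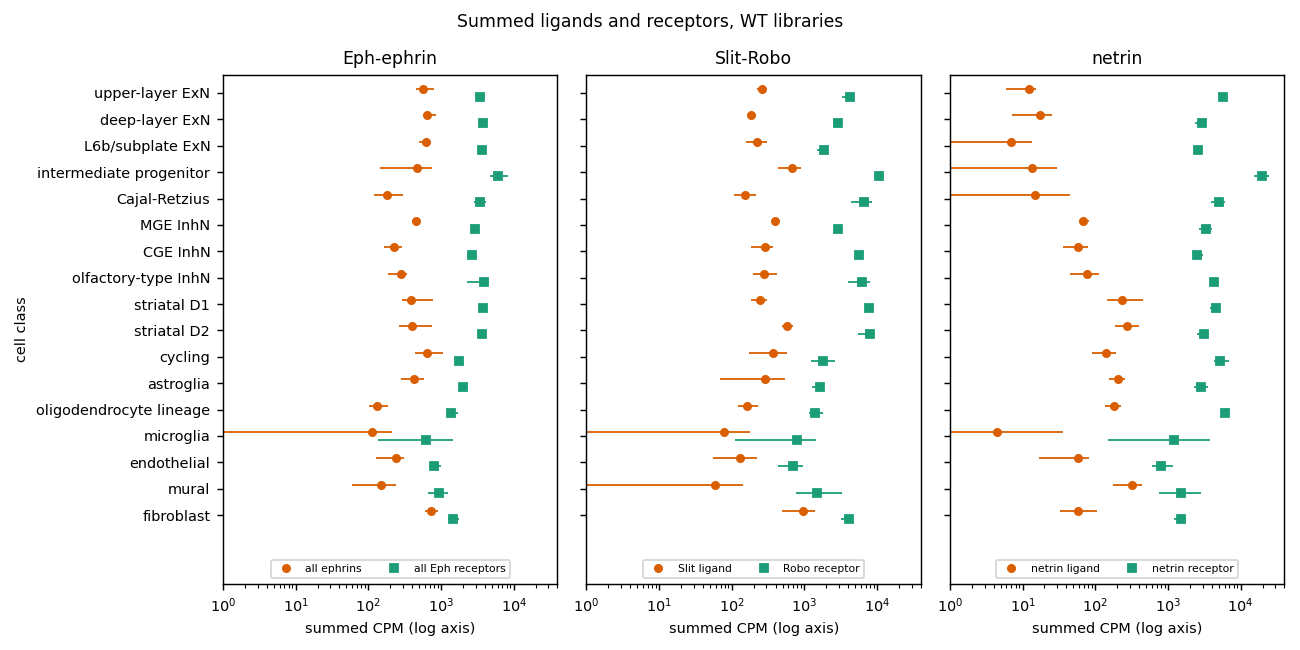
Summed CPM on a log axis of the ligands (circles) and receptors (squares) of each system in the 17 classes, with the mean of the WT libraries as the point and their lowest and highest values as the line (a line reaching the left edge has a library below 1 CPM). Netrin ligands run from 4.46 CPM in microglia-like to 316 CPM in mural-like nuclei and netrin receptors from 811 CPM in endothelial-like to 19570 CPM in intermediate progenitor-like nuclei. Genes of different length are summed, so circles should be compared with circles and squares with squares.

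The intermediate progenitor-like class, which led for Dcc, Unc5d, Robo2 and Epha5, was a single cluster of 2118 nuclei (cluster 18) and needs care in its name. Eomes, the transcription factor that defines these cells, was at 104 ± 31.5 CPM against a median of 1.42 CPM over the other classes, and Neurod1 was at 46.2 CPM. Of its 8 markers, 2 were highest there and 5 ranked among the first 3 classes, and Neurog1 was at 0. Summed upper-layer ExN markers reached 2670 CPM in its WT libraries, against 5095 CPM in the upper-layer-like class itself. When each nucleus was instead gated alone by its marker UMIs, 2604 nuclei were gated as intermediate progenitor-like, with Unc5d at 1773 ± 505.5 CPM, Dcc at 3857 ± 1322 CPM, Robo2 at 2669 ± 587 CPM and Epha5 at 1141 ± 116 CPM. The levels given for this class are thus those of cluster 18, and those of these 4 genes were lower with the gate. Unc5c went the other way, from 62.6 ± 23.5 CPM in cluster 18 to 811 ± 152 CPM with the gate, and Epha6 from 248 ± 55.3 to 443 ± 108 CPM. Over all WT nuclei Unc5d stood at 916.5 CPM, Dcc at 2351, Robo2 at 2174 and Epha5 at 1012 CPM. Unc5c stood there at 903 CPM and Epha6 at 448 CPM. The gate thus gave levels nearer those of all nuclei, and whether it picked purer progenitors was not tested. With that gate Dcc was highest in oligodendrocyte lineage-like nuclei (4018 CPM), Robo2 in Cajal-Retzius-like nuclei (3627 CPM) and Epha5 in L6b/subplate-like ExN (1388 CPM). At the lower clustering resolution of 0.8 no class was named intermediate progenitor-like, and Unc5d was then highest in astroglia-like (1335 CPM), Dcc in cycling (5217 CPM), Robo2 in Cajal-Retzius-like (4765 CPM) and Epha5 in L6b/subplate-like nuclei (1286 CPM).

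The 5 upper-layer-like clusters differed from one another in the same genes. Of these, cluster 2, with 5516 nuclei led by Tshr, Ntf3 and Cntnap5c, met the naming limits only at their minimum, with 3 upper-layer markers raised. Cluster 4, led by Adamts2, Hs6st2 and Frmd4b, had Unc5d at 3927 ± 463 CPM, Dcc at 3899 ± 736 CPM and Robo2 at 5501 ± 420 CPM. Cluster 5, led by Rorb, a layer 4 transcription factor, had Unc5d at 576 ± 124.5 CPM and Robo1 at 585 ± 90.3 CPM. Unc5c took the opposite course, with 792 ± 95.4 CPM in cluster 4, 2218 ± 368 CPM in cluster 0 and 2947 ± 381.5 CPM in cluster 5. Efna5 followed Unc5c in that respect, with 84.8 ± 12.5 CPM in cluster 4 and 919 ± 196 CPM in cluster 5. Epha3 was low only in cluster 21 of these clusters, at 99.3 ± 58.9 CPM (n = 6), where Epha6 was at 722.5 ± 116 CPM.

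**Figure D3:**
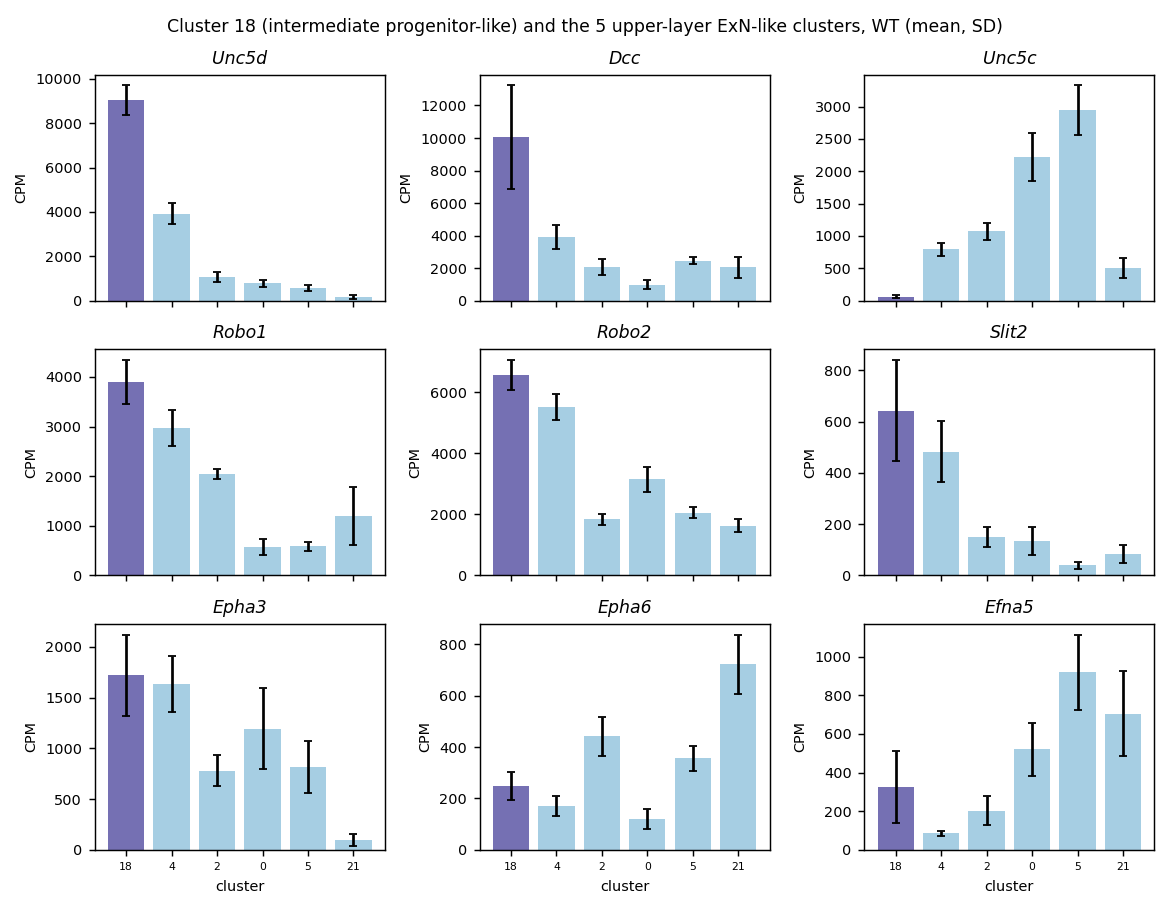
WT mean (bar) and SD (error bar) over 8 libraries, or 6 for cluster 21, of 9 genes in CPM in cluster 18, the intermediate progenitor-like class, and in the 5 upper-layer-like clusters 4, 2, 0, 5 and 21. Unc5d, Dcc, Robo2 and Slit2 are highest in cluster 18, while Unc5c is at 62.6 CPM there and at 2947 CPM in cluster 5.

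Genotype was then compared within each class on summed UMIs per library, with a gene called at an adjusted p under 0.05 and a log2 difference (Het over WT) of at least 0.2 in either direction. Of 336 pairs of guidance gene and class tested by edgeR, 0 were called, against 3 of 102354 pairs over all genes (0.00293%). At an unadjusted p under 0.05 there were 49 pairs (14.6%), 26 higher and 23 lower in Het, against 6.46% of all pairs. Without Het male 3 there were 36 such pairs of 349, 13 higher and 23 lower, against 4888 of 104641 pairs over all genes. DESeq2 called 2 pairs, Robo2 in L6b/subplate-like ExN and Epha4 in MGE-like InhN, where 0.0547% of all pairs were called. Epha1 and Epha2 were too low for a test in any class, so 34 genes were tested. The median log2 difference over the 336 pairs was -0.02.

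By role, the median differences were small. Slits had 9 of 37 pairs under an unadjusted p of 0.05 (24.3%) and ephrin-A ligands 5 of 21 (23.8%), EphA receptors 14 of 86 (16.3%), netrin receptors 10 of 68 (14.7%) and EphB receptors 1 of 38 (2.63%). Slit2 alone gave 8 of the Slit pairs among 15 classes tested. Slit2 was higher in Het in 6 of these, from a log2 difference of 0.43 ± 0.15 (SE) in oligodendrocyte lineage-like nuclei to 1.81 ± 0.45 in Cajal-Retzius-like nuclei, and lower in L6b/subplate-like ExN (-0.63 ± 0.24) and MGE-like InhN (-0.21 ± 0.09). Its smallest edgeR adjusted p among them was 0.33. In cluster 6, an astroglia-like cluster singled out after its values were seen, the Slit2 difference was 1.23 ± 0.23 (SE; edgeR adjusted p = 0.075). In the whole astroglia-like class the Het libraries were far apart, with summed Slits at 283.5 to 1066 CPM, against 68.0 to 537 CPM in WT. Efna5 was lower in 13 of its 15 classes and Efnb2 in 13 of 15, yet the same classes' libraries underlie every gene, so these are not independent observations. Epha10 was lower in all 7 of its classes, by a log2 difference of -0.77 in upper-layer-like ExN (edgeR adjusted p = 0.295), from a WT level of 12.03 CPM.

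**Figure D4:**
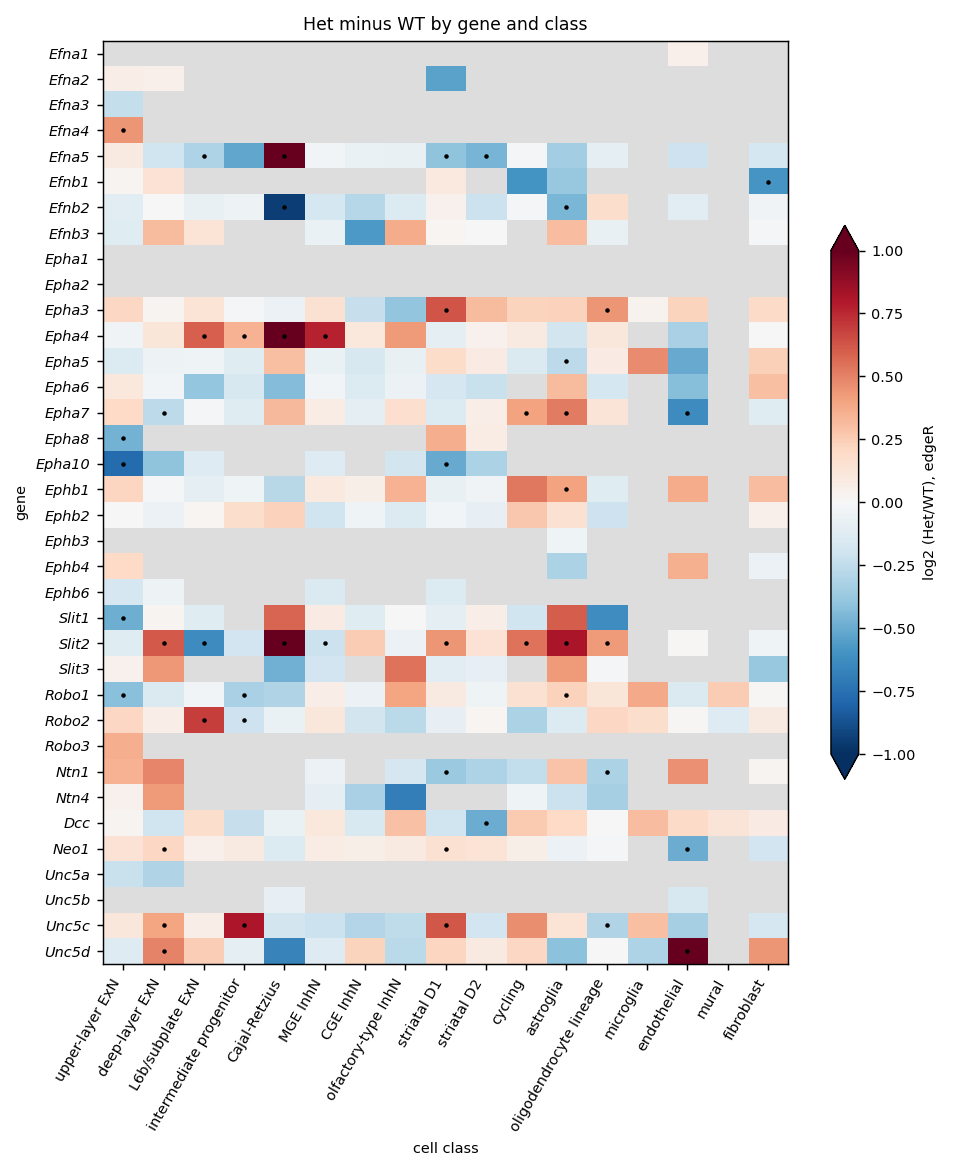
Log2 difference of Het over WT from edgeR for each gene (rows) and class (columns), in red where higher and blue where lower in Het, on a scale that stops at 1 either way, with dots at an unadjusted p under 0.05 and grey for pairs with too few counts. None of the 336 coloured cells passed the adjusted threshold, and 49 carry a dot.

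The pair with the smallest p was Robo2 in L6b/subplate-like ExN, the deepest cortical neurons. WT libraries ran from 657 through a median of 755 to 891 CPM, and Het male 1, 2 and 3 and Het female 1 held 877, 1602, 1553 and 923 CPM. Het male 1 lay inside the WT range and the other 3 above it. The log2 difference was 0.69 ± 0.13 (SE), with an edgeR adjusted p of 0.0708 and a DESeq2 adjusted p of 0.0397. Its edgeR adjusted p was 0.00174 without Het female 1, 0.00242 without Het male 1, 0.652 without Het male 2 and 0.432 without Het male 3. The log2 difference without these libraries was 0.82, 0.83, 0.55 and 0.57, in that order. With each nucleus gated alone the log2 difference was 0.27 (edgeR adjusted p = 0.444). Cajal-Retzius markers, whose own class is rich in Robo2, summed to 38.1 to 145 CPM in the WT and 61.5 to 150 CPM in the Het libraries of this class (7 of 8 with a UMI, Lhx1 at 0). Intermediate progenitor markers, of the class highest in Robo2, summed to 0 to 13.05 CPM in WT and 3.418 to 6.675 CPM in Het. Neurog1 and Neurog2 were at 0 there. The part of either marker set in the result was not tested.

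Epha4 in MGE-like InhN ran from 41.3 through 62.8 to 83.2 CPM in WT, and the Het libraries held 74.1, 120, 176 and 85.2 CPM in the same order. Here too 3 Het libraries lay above every WT library. The log2 difference was 0.77 ± 0.19 (SE; edgeR adjusted p = 0.15, DESeq2 adjusted p = 0.0454), and it was 0.81 with the 3 MGE-like clusters given the same weights in each library. Striatal D1 markers, the class in which Epha4 was highest, summed to 226 to 317 CPM in WT and 283 to 410 CPM in Het (8 of 8 with a UMI). Striatal D2 markers, of the class next highest in Epha4, summed to 594 to 787 CPM in WT and 675 to 796 CPM in Het. Whether either marker set bears on the difference was not tested. It was 0.46 without Het male 3 (edgeR adjusted p = 0.725), 0.94 without Het male 1 (edgeR adjusted p = 0.0279) and 0.88 without Het female 1 (edgeR adjusted p = 0.0384).

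Cajal-Retzius-like nuclei gave 2 of these pairs, for the ligands Slit2 and Efna5. Slit2 was at 5.48 to 93.5 CPM in WT, with a median of 29.3, and at 99.1, 114, 335 and 69.2 CPM in Het. Efna5 was at 41.8 to 130 CPM in WT, with a median of 72.7, and at 135, 171, 335 and 72.6 CPM in Het. The library farthest out was Het male 3 for both, where each gene happened to give 119 UMIs in 147 nuclei. The log2 differences were 1.81 ± 0.45 (SE) for Slit2 and 1.30 ± 0.33 (SE) for Efna5, with edgeR adjusted p of 0.33 and 0.35. Leaving out Het male 3 gave 1.02 and 0.73, and gating each nucleus alone gave 0.06 and 0.41. With the guidance genes among the variable genes they were 0.90 and 0.62, and Efna5 was at 0.56 and 0.61 with clusters drawn at resolutions of 0.8 and 2.5. Intermediate progenitor markers, of a class rich in Slit2, summed to 0 to 32.5 CPM in WT and 16.6 to 51.3 CPM in Het (7 of 8 with a UMI, Neurog1 at 0). Fibroblast markers, of a class rich in both genes, summed to 8.13 to 77.55 CPM in WT and 11.4 to 28.1 CPM in Het. Deep-layer markers, of the class highest in Efna5, summed to 672 to 1184 CPM in WT and 689 to 831.5 CPM in Het. The part of these marker sets was not tested.

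Unc5d in endothelial-like nuclei ran from 63.6 through 98.7 to 139 CPM in WT and stood at 109, 205, 373 and 242 CPM in Het, with 3 libraries above all WT ones. Its log2 difference was 1.14 ± 0.26 (SE; edgeR adjusted p = 0.495) on 323 UMIs in all, and it was 0.71 with marked doublets kept and 0.70 with each nucleus gated alone. This is the class in which Unc5d was lowest, and intermediate progenitor markers summed there to 17.6 to 110 CPM in WT and 23.8 to 63.5 CPM in Het (7 of 8 with a UMI, Neurog1 at 0). Their part was not tested. Unc5c in intermediate progenitor-like nuclei was likewise low, at 35.5 to 97.9 CPM in WT and 94.7, 101, 146 and 71.6 CPM in Het, with a log2 difference of 0.81 ± 0.23 (SE; edgeR adjusted p = 0.275). It was 0.52 without Het male 3. With nuclei gated alone that difference was -0.01, so its direction depended on how the class was drawn. The gated nuclei held 811 CPM of Unc5c in WT, near the 903 CPM of all WT nuclei.

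Epha3 in striatal D1-like nuclei stood at 55.8 to 200.5 CPM in WT, with a median of 80.3, and at 108, 125, 179 and 87.8 CPM in Het. Every Het library lay within the WT range, whose top was WT male 4 with 22 nuclei and 12.5 UMIs. The log2 difference was 0.63 ± 0.16 (SE; edgeR adjusted p = 0.388), and it was 0.42 without Het male 3 and 0.20 with each nucleus gated alone.

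Of the 12 pairs with the smallest p, 5 had lower means in Het, and none of them passed the test. Dcc in striatal D2-like nuclei ran from 1698 through 2222 to 2811 CPM in WT and stood at 1409, 1825, 1115 and 1891 CPM in Het, a log2 difference of -0.50 ± 0.14 (SE; edgeR adjusted p = 0.478). Het male 1 and Het male 3 lay below every WT library and the other two within their range. Unc5c in oligodendrocyte lineage-like nuclei had WT values of 862 to 1175 CPM and Het values of 1002, 776, 776 and 726 CPM (log2 difference -0.30 ± 0.09, SE; edgeR adjusted p = 1.0), with 3 Het libraries below all WT ones. Upper-layer markers, of a class rich in Unc5c, summed there to 761 to 1105 CPM in WT and 896 to 1102 CPM in Het (10 of 10 with a UMI), and their part was not tested.

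Slit1 in upper-layer-like ExN was at 29.7 to 53.0 CPM in WT, with a median of 35.4, and at 26.7, 21.2, 25.5 and 32.6 CPM in Het. The difference of -0.49 ± 0.14 (SE; edgeR adjusted p = 0.266) was -0.33 with the same cluster weights in each library, over the 6 WT and 4 Het libraries with at least 10 nuclei in every cluster of the class, and 0.10 when clusters were drawn at the lower resolution of 0.8. Epha7 in deep-layer-like ExN was at 721.5 to 897 CPM in WT, with a median of 839, and at 773, 659.5, 599 and 728 CPM in Het, a log2 difference of -0.26 ± 0.08 (SE; edgeR adjusted p = 0.474). Het male 1 and Het female 1 lay within the WT range and the other two below it.

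Robo1 is given for the intermediate progenitor-like class, one of the pairs with the smallest p, and for cluster 4, where it was called. In the whole upper-layer-like class, which holds cluster 4, its log2 difference was -0.42, the lowest of its 17 classes. In deep-layer-like ExN it was -0.15. In intermediate progenitor-like nuclei WT libraries ran from 3298 through 3919 to 4506 CPM and Het libraries held 3467, 3157, 2862 and 3004 CPM, with a log2 difference of -0.32 ± 0.10 (SE; edgeR adjusted p = 0.379) that was -0.21 without the filter on low counts. In cluster 4, the Unc5d-rich upper-layer-like cluster, WT libraries ran from 2563 through 2957 to 3592 CPM and Het libraries held 2034, 1712, 2221 and 2636 CPM. Robo1 was called there, lower in Het by a log2 difference of -0.47 ± 0.11 (SE; edgeR adjusted p = 0.0489, DESeq2 adjusted p = 0.0155), with 3 Het libraries below all WT ones and Het female 1 inside their range. In cluster 4 edgeR called 31 of 6354 genes, Robo1 among them, of 43 calls over all genes and clusters. Its adjusted p covers the 6354 genes of cluster 4 and was not adjusted for the 42 clusters. Robo1 there was the only one of 757 pairs of guidance gene and cluster called by edgeR, over 42 clusters, against 0.0212% of pairs over all genes, and DESeq2 called 7 (0.0553% over all genes). Leaving out single libraries moved its adjusted p between 0.00351 and 0.309, and the call was lost without any of 10 of the 12 libraries, the exceptions being WT male 1 and Het female 1. It was also lost with the replicate number as a block (edgeR adjusted p = 0.0695). Over all 19 alternatives, the left-out libraries and the block among them, the log2 difference ran from -0.59 to -0.38.

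**Figure D5:**
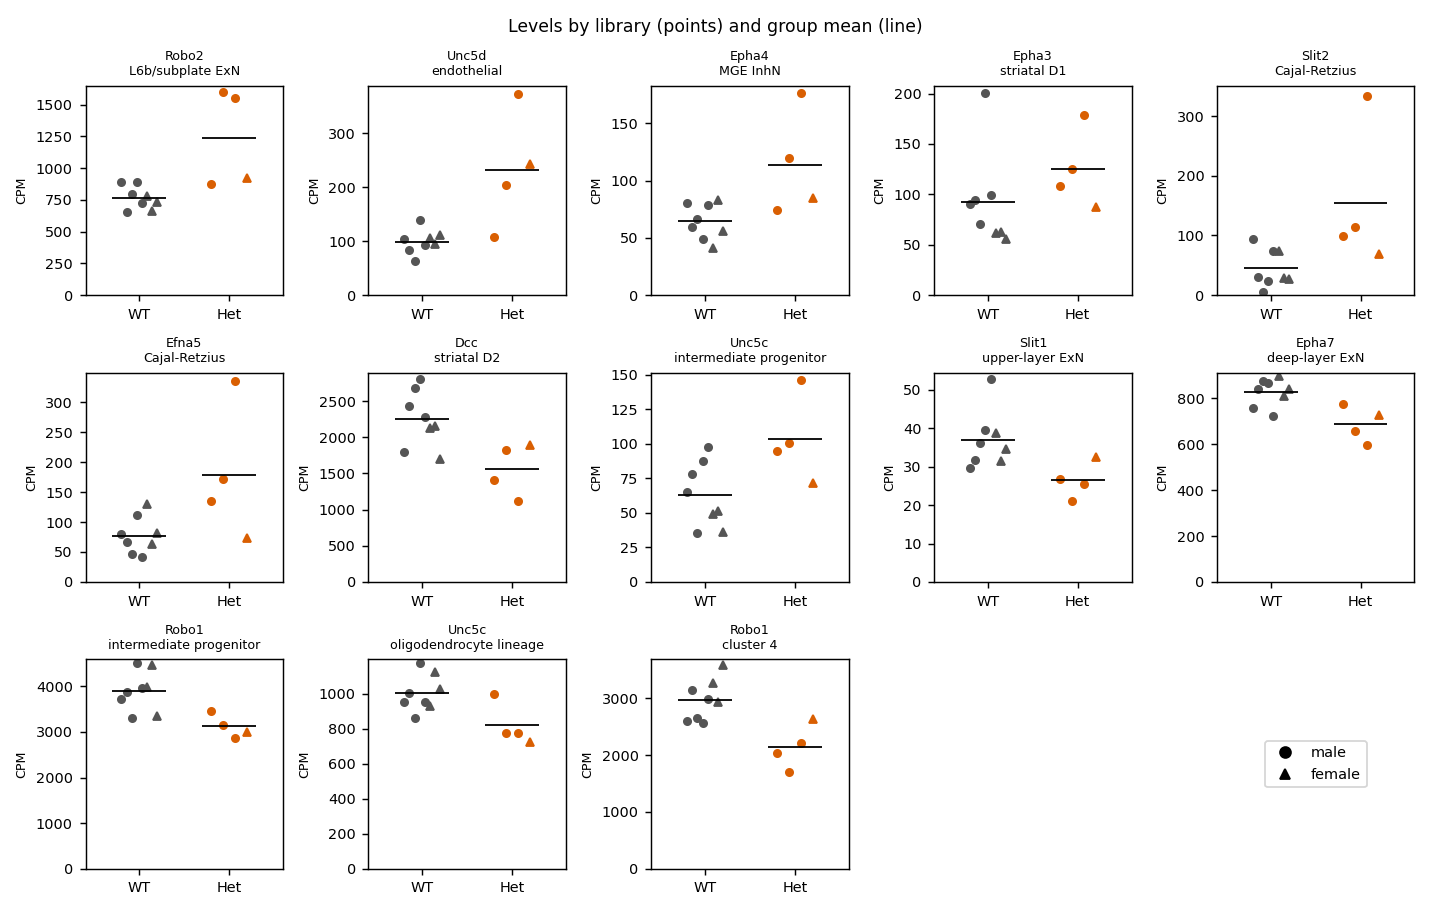
CPM by library (points, circles for male and triangles for female) and group mean (line) for the 12 class-level pairs of smallest p and for Robo1 in cluster 4, the one pair called. WT and Het libraries overlap in all 13 panels.

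Het male 3 was the Het library farthest from WT in 9 of these 13 pairs, Het male 2 in 3 and Het female 1 in 1. Of the 12 libraries, Het male 3 had the lowest median UMIs (1702) and median genes (1072) per kept nucleus. It also had the most barcodes (16782), of which 11474 passed the filter, and the most kept nuclei (10855). Whether depth or quality bears on its distance from WT was not tested. Without Het male 3, 0 of 349 pairs were called, against 1 of 104641 over all genes.

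Nuclei were also summed over broader groups. In all excitatory nuclei 0 of 33 guidance genes were called by edgeR (0.0% of all genes) and 7 had an unadjusted p under 0.05 (11.7% of all genes), with Epha10 (-0.69), Slit1 (-0.52) and Robo1 (-0.34) lower and Ephb3 (0.93), Efna4 (0.56), Robo2 (0.29) and Neo1 (0.28) higher by log2 difference. In all inhibitory nuclei 0 of 29 were called (0.0% of all genes), and the 6 with an unadjusted p under 0.05 (8.87% of all genes) were all lower in Het. These were Ntn4 (-0.54), Epha6 (-0.54), Unc5c (-0.51), Unc5d (-0.35), Efna5 (-0.26) and Ephb2 (-0.26). Within the inhibitory and striatal classes Epha6 ran from -0.22 in striatal D2-like to -0.03 in MGE-like nuclei, Ephb2 from -0.20 in MGE-like to -0.03 in striatal D1-like nuclei and Unc5c from -0.29 in CGE-like to 0.62 in striatal D1-like nuclei. The pooled values of these 3 genes thus lay beyond each single class, and the mean mix of classes differed, with olfactory-type InhN at 2.99% of WT and 1.61% of Het nuclei and MGE-like InhN at 6.31% and 4.73%. By library, olfactory-type InhN made up 0.711 to 5.61% in WT and 0.58 to 2.53% in Het. MGE-like InhN made up 4.96 to 7.43% and 4.13 to 5.51%. The part of that mix was not tested. Over all kept nuclei 0 of 34 were called (0.0% of all genes) and 3 had such a p (9.87% of all genes), namely Efna3, Epha5 and Slit1, all lower. DESeq2 called 0 guidance genes in each of these sums, against 0.235%, 0.135% and 0.0847% of all genes.

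Whether a difference between genotypes itself differed between classes was tested as an interaction. For upper-layer-like against deep-layer-like ExN, 0 of 30 genes were called by edgeR (0.0336% of all genes) and 0 by DESeq2 (0.0168%), and 7 had an unadjusted p under 0.05 (5.98% of all genes). Epha7 was at 0.20 in upper-layer-like and -0.26 in deep-layer-like ExN, a difference of 0.45 ± 0.13 (SE; edgeR adjusted p = 0.429), and Unc5d at -0.13 and 0.50, a difference of -0.64 ± 0.19 (SE; edgeR adjusted p = 0.429). For excitatory against inhibitory nuclei 0 of 30 were called by edgeR (0.0% of all genes) and 0 by DESeq2 (0.0506%), and 12 had an unadjusted p under 0.05 (9.32% of all genes), led by Ephb1 at -0.40 and 0.44 and Robo1 at -0.34 and 0.24 (edgeR adjusted p = 0.329 for both). Within classes Ephb1 was at 0.22 in upper-layer-like and -0.01 in deep-layer-like ExN, and at -0.08 in striatal D1-like and -0.04 in D2-like nuclei. The mean shares of the Ephb1-rich deep-layer-like and striatal D1-like classes differed between the genotypes, with overlapping libraries, as given above. Their part in the pooled values was not tested.

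Other genes of the Eph-ephrin, Slit-Robo and netrin systems were examined from a list of 66, of which 63 could be tested in some class. It holds adaptors, kinases and regulators of small GTPases below Eph, Robo and netrin receptors. The list also holds further receptors, ligands and surface proteins, such as Robo4, Draxin and Sdc3. Of 1760 pairs of gene and cluster edgeR called 1, against 43 of 202712 pairs over all genes. It lay in cluster 4, where 31 of 6354 genes were called, and was lower in Het. Of 771 pairs of gene and class 0 were called by edgeR, and 49 had an unadjusted p under 0.05 (6.36%), 20 higher and 29 lower, close to the 6.46% of all genes. The smallest p belonged to Tiam1, an exchange factor for Rac, in MGE-like InhN, at 368.5 ± 23.1 CPM in WT and 300 ± 18.4 CPM in Het (n = 4), a log2 difference of -0.31 (edgeR adjusted p = 0.176). In the same class Yes1, a Src-family kinase, had a difference of 0.31 (edgeR adjusted p = 0.266). Trim9, a ubiquitin ligase that binds DCC, and Grb10, an adaptor, had -0.33 and -0.67 in deep-layer-like ExN (edgeR adjusted p = 0.474 and 0.487). Abl1, a cytoplasmic kinase, had -0.50 in fibroblast-like nuclei (edgeR adjusted p = 1.0).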

How the data were processed

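The tissue is forebrain per the labels, while the study's methods name both forebrain and, in 1 passage, prefrontal cortex. Per these methods, nuclei of each mouse were fixed, barcoded by split-pool ligation in one plate, mapped to mm10 with ScaleRna and called as nuclei with CellFinder, and Seurat 4.3.0 is named in the submitters' processing notes. The deposited matrices hold estimated counts of UMIs per gene and nucleus, some of them divided between genes (6.58 to 6.88% of entries per library). Those counts were used as deposited by the authors, with sums rounded to whole numbers before fitting.

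The study's own limits were applied to nuclei: between 800 and 6000 UMIs, between 300 and 3000 genes detected, mitochondrial share no higher than 1%, and a ratio of log genes over log UMIs no lower than 0.9. Of 126684 barcodes 98076 passed. A simulated-doublet score marked 6333 of all barcodes, and the 3921 of these that had passed were removed. Leiden clustering (leidenalg 0.10.2, resolution 1.5, 20 neighbours, 50 components, 3000 variable genes without the 36 guidance genes) was followed by naming from marker lists, with naming thresholds set after the clusters were seen. The guidance genes and lists were chosen with earlier results of these data known.

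Sums per library and class (at least 10 nuclei, at least 3 libraries per genotype) were tested with edgeR 4.0.16 (quasi-likelihood, TMM, filterByExpr, genotype only) and Benjamini-Hochberg adjustment over all genes, with DESeq2 1.42.0 as the alternative. The adjustment was made within each class, cluster or broader sum, and not across them. The fit was tested on simulated data. Each library is 1 mouse, so p-values measure the spread between mice. The study's methods draw the newborn mice from more than 1 litter. The litter of each library is not in the labels, so litter was not modelled. Full values are given for called pairs and the 12 pairs with the smallest p. CPM from few UMIs are imprecise by counting error alone. Gene positions are from GENCODE M21 (54587 of 55335 identifiers matched), and reads shared with overlapping genes cannot be told apart.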

Additional observations from a re-analysis of the deposited data

Results flagged for a closer look

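In 58 groups of libraries, each named gene in its class or leading class, 8 had a library set apart from the rest by Dixon's criterion, where chance gives about 5% of groups. WT male 4, which held 22 striatal D1-like, 13 striatal D2-like and 29 intermediate progenitor-like nuclei, accounts for 4 of them. It stood at 200.5 CPM for Epha3 in D1-like nuclei (the others 55.8 to 99.5), at 3277 CPM for Epha5 in intermediate progenitor-like nuclei (1579 to 2196), at 0 CPM for Epha8 in D2-like nuclei (22.5 to 35.6) and at 131.7 CPM for Efna2 in D2-like nuclei (5.93 to 22.5). Het male 3 stood at 334.9 CPM for Slit2 in Cajal-Retzius-like nuclei (the other Het libraries 69.2 to 114). WT male 5 stood at 52.95 CPM for Slit1 in upper-layer-like ExN (29.7 to 39.7), WT female 2 at 764.7 CPM for Epha6 in olfactory-type InhN (1596 to 2293), and WT female 3 at 19.44 CPM for Ephb6 in deep-layer-like ExN (31.7 to 42.6).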

How the results depend on the processing

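The count of called guidance gene and class pairs was 0 by edgeR, against 3 of 102354 over all genes. It was 2 with DESeq2 (56 of 102354 over all genes), 2 in male libraries alone (156 of 102556), 1 with marked doublets kept (17 of 105209), 15 without the low-count filter (795 of 424553) and 1 with sex as covariate (6 of 102354). It ran from 0 to 4 without single libraries, with 4 without Het female 1 (217 of 104871) and 3 without Het male 1 (26 of 104141). Over clusters the count of 1 (43 of 202712 over all genes) became 7 with DESeq2 (112 of 202712), 14 in males (328 of 201491), 3 with doublets kept (67 of 210341), 34 without the filter (1207 of 976444) and 2 with sex as covariate (53 of 202712). It ran from 0 to 15 without single libraries, with 15 without Het female 1 (444 of 210640), 6 without WT male 1 (108 of 199216), 4 without Het male 1 (102 of 204176), 2 without WT male 2 (63 of 209402) or WT female 3 (72 of 212828), and 0 without Het male 2 (4 of 207003), Het male 3 (8 of 205838), WT male 4 (34 of 207603) or WT male 5 (35 of 206058). In excitatory nuclei it ran from 0 to 2, the latter without Het female 1 (384 of 14964 over all genes), and in inhibitory nuclei it was 3 without the filter (209 of 35024). The interaction counts without the filter were 2 for upper against deep layers (73 of 37160) and 10 for excitatory against inhibitory nuclei (453 of 39360). Both ran from 0 to 1 without single libraries, 1 without Het female 1 (28 of 12109 and 101 of 14090). Pathway genes gave 1 of 771 pairs with DESeq2, 4 of 1078 without the filter and from 0 to 1 without single libraries (1 of 796 without Het female 1), with the counts over all genes as given for classes. The cause of these changes was not tested. Of 295 alternatives for the 13 named pairs, 262 kept direction and side of the threshold, 20 passed it anew, 11 (all Robo1 in cluster 4, 10 left-out libraries and the replicate block at an edgeR adjusted p of 0.0695) lost it and 2 changed direction, Unc5c in intermediate progenitor-like nuclei gated alone (-0.0132) and Slit1 in upper-layer-like ExN at resolution 0.8 (0.1019). With nuclei gated alone, 16 of the 36 genes kept their leading class.

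WT and Het libraries share sex and replicate numbers in the labels. With these numbers as a block the count was 2 over classes (Unc5c in striatal D1-like nuclei and Unc5d in deep-layer-like ExN), against 50 of 102354 over all genes, and 6 over clusters, against 178 of 202229. Same-numbered libraries correlated at 0.136, 0.195, 0.123 and 0.437 in excitatory nuclei, at -0.168, 0.357, 0.0452 and 0.365 in inhibitory nuclei and at -0.185, 0.117, 0.174 and 0.5 over all nuclei. In each of these sums 1 of 4 Het libraries correlated best with its own number. It was the same library each time, Het female 1 with WT female 1. All correlations exceeded 0.1 in excitatory nuclei but not in the others, and nothing in the labels ties a number to a litter, so the numbers were not taken as pairing mice.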
